A study of Mus musculus with 6 samples.

Results

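The genes described here encode the proteasome, the barrel-shaped protease that degrades proteins tagged with ubiquitin. They were chosen by name: every gene whose symbol in the array's annotation starts with Psma, Psmb, Psmc, Psmd, Psme, Psmf or Psmg followed by a digit. The rule found 45 genes, read by 67 probes, among 16593 named genes. Of the 45 genes, 43 had a probe bright enough to be tested. The rule also took in Psmc3ip, a meiotic recombination cofactor, and Psme3ip1, a protein that binds the PA28 gamma ring. Neither is a proteasome subunit. Both are counted in the totals for the 43 tested genes and in the motif counts, and are kept apart only by role. No probe carried the symbol of Psmb11, Psmd3, Psmf1, Psmg4 or Psma8, so these genes were not analysed here.

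Messenger RNA was measured in CD4+CD8+ thymocytes of AND.Rag1-/-H-2d mice, in which lymphocytes carry the transgenic AND T cell receptor and the H-2d background leaves the cells unselected. For 7 h the cells lay on plate-bound I-Ek dimers that carried MCC (negative selection signals by the labels), gp250 (positive selection signals) or Hb (non-selecting). Every group shares the receptor, the Rag1 deficiency and the H-2d background, and the labels give no ages. There were 2 arrays per ligand and 6 in all. No label says that the 2 came from separate mice or cultures, so the p-values reflect the spread between these samples alone, and that spread may be technical.

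The core of the proteasome, the 20S particle, is a stack of rings of alpha subunits, which gate the channel, and beta subunits, of which Psmb5, Psmb6 and Psmb7 cut peptide bonds. In cells of the immune system, and after interferon, these are exchanged for Psmb8, Psmb9 and Psmb10, which gives the immunoproteasome and shifts the peptides available to class I molecules. The 19S cap binds ubiquitin chains, removes them and threads the substrate into the core with a ring of ATPases. PA28 and PA200 are other caps, and dedicated chaperones assemble core and cap.

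The promoters of 5 genes are shown, chosen with their values known, by whether the brightest probe passed the test of MCC against Hb below. Psme3, Psmb5 and Psmd12 were higher with MCC, and Psme1 and Psmb8 did not pass. For Psme1 that is a missed threshold and not a lack of change, since a dimmer probe of the gene passed. Each window runs from 250 bases before to 50 bases after the start of the gene, 5′ to 3′ on the gene's strand, from RefSeq on GRCm38.p6. Psme3 lies at chr11:101315963-101316262, plus strand, Psmb5 at chr14:54617946-54618245, minus strand, Psmd12 at chr11:107479278-107479577, plus strand, Psme1 at chr14:55578244-55578543, plus strand and Psmb8 at chr17:34197945-34198244, plus strand. Capitals mark matches, on either strand, to any of 6 motifs.
Psme3: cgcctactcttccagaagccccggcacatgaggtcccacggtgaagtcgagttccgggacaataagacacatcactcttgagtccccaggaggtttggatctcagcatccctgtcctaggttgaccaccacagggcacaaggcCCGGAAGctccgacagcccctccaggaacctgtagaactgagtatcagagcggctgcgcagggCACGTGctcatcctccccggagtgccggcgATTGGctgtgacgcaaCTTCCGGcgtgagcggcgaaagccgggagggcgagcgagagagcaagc
Psmb5: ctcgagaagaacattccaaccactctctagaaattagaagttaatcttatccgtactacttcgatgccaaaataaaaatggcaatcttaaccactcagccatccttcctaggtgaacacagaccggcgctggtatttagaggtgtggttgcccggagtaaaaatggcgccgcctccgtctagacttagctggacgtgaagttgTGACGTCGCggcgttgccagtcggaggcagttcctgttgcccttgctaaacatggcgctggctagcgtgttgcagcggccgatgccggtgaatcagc
Psmd12: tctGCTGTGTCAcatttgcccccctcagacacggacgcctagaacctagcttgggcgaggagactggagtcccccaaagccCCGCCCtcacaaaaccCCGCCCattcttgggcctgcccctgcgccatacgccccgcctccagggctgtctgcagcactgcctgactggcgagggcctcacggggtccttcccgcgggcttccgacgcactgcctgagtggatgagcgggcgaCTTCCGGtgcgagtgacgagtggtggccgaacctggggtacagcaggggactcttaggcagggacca
Psme1: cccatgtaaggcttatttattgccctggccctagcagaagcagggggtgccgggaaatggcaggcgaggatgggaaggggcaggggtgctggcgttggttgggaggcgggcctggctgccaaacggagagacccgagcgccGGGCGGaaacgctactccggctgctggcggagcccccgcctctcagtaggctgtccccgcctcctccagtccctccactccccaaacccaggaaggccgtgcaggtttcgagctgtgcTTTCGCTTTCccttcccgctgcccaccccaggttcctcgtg
Psmb8: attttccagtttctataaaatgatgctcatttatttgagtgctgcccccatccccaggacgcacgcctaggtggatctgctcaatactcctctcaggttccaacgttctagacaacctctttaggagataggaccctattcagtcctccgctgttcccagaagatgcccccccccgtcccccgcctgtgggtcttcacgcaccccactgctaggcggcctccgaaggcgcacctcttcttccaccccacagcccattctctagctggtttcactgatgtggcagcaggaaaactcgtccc
In Psme3 the capitals are ETS sites (CCGGAAG) 107 bases before and 3 bases after the start, an E box (CACGTG) 44 bases before it and a CCAAT box 14 bases before it. The Psmb5 window holds a core of the antioxidant response element (TGACNNNGC), the kind of site that NFE2L1 and NFE2L2 bind, 47 bases before the start. Psmd12 has that core 247 bases before the start, GC boxes (GGGCGG) 169 and 153 bases before it and an ETS site 17 bases before it. In Psme1 there is a GC box 109 bases before the start and an interferon-type pair (GAAA repeated after a gap of 2 bases) 10 bases after it, and none of the motifs was in the Psmb8 window.

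Across the family, RefSeq held a promoter window for 39 of the 45 genes. The ETS site was in 16 of these 39 (41.0%), against 13.9% of the 13336 array genes with a window and 8.86% of all 32851 windows. The antioxidant core was in 6 of 39 (15.4%), against 15.5% of the array genes and 12.4% of all windows. CCAAT was in 15 (38.5%, against 42.5% and 37.4%), the GC box in 23 (59.0%, against 53.6% and 35.7%), the E box in 5 (12.8%, against 9.68% and 7.15%) and the interferon-type pair in 4 (10.3%, against 4.11% and 3.44%). A gene counted if any of its windows held the motif, matches were allowed to overlap, and a match is letters in a window, not a bound site. Tested genes with an ETS site had a median log2 difference of MCC over Hb of 0.50 (n = 15), against 0.54 for those without (n = 22). With the antioxidant core the median was 0.32 (n = 6), against 0.50 without (n = 31), and with CCAAT 0.58 (n = 13), against 0.50 without (n = 24). For the GC box it was 0.49 (n = 22), against 0.58 without (n = 15), and for the E box 0.40 (n = 5), against 0.54 without (n = 32). The genes with the interferon-type pair, Psmb3, Psmd4, Psmd9 and Psme1, had a median of 0.15 (n = 4), against 0.58 without (n = 33). These medians were not tested.

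MCC against Hb sets a ligand of negative selection against a non-selecting one. Proteasome genes were mostly higher with MCC, by modest amounts: 28 of the 43 tested genes rose, 2 fell and 13 did not pass the test (limma, adjusted p under 0.05 over all tested probes). Over all 8253 tested genes, each read by its brightest probe, 26.2% rose and 28.8% fell. The median log2 difference of the proteasome genes was 0.50, beside -0.04 for all tested genes. Without Psmc3ip and Psme3ip1, 28 of 41 genes rose, 2 fell and the median was 0.51. The changes that passed ran from 1.25-fold (Psma2) to 2.47-fold (Psme2 and Psme3), and 2 genes rose at least 2-fold, beside 8.65% of all tested genes. On 36 of the 43 genes both MCC arrays lay above all 4 gp250 and Hb arrays, which held for 32.7% of all tested genes, and on 1 gene below them (37.3% of all tested genes). These differences are relative to each array's signals as a whole. Without scaling between arrays the median tested gene was 0.21 (log2) higher with MCC, 39 of the 43 proteasome genes rose and 0 fell, and of the called genes overall 69.3% rose, in place of 47.6%.

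**Figure D1:**
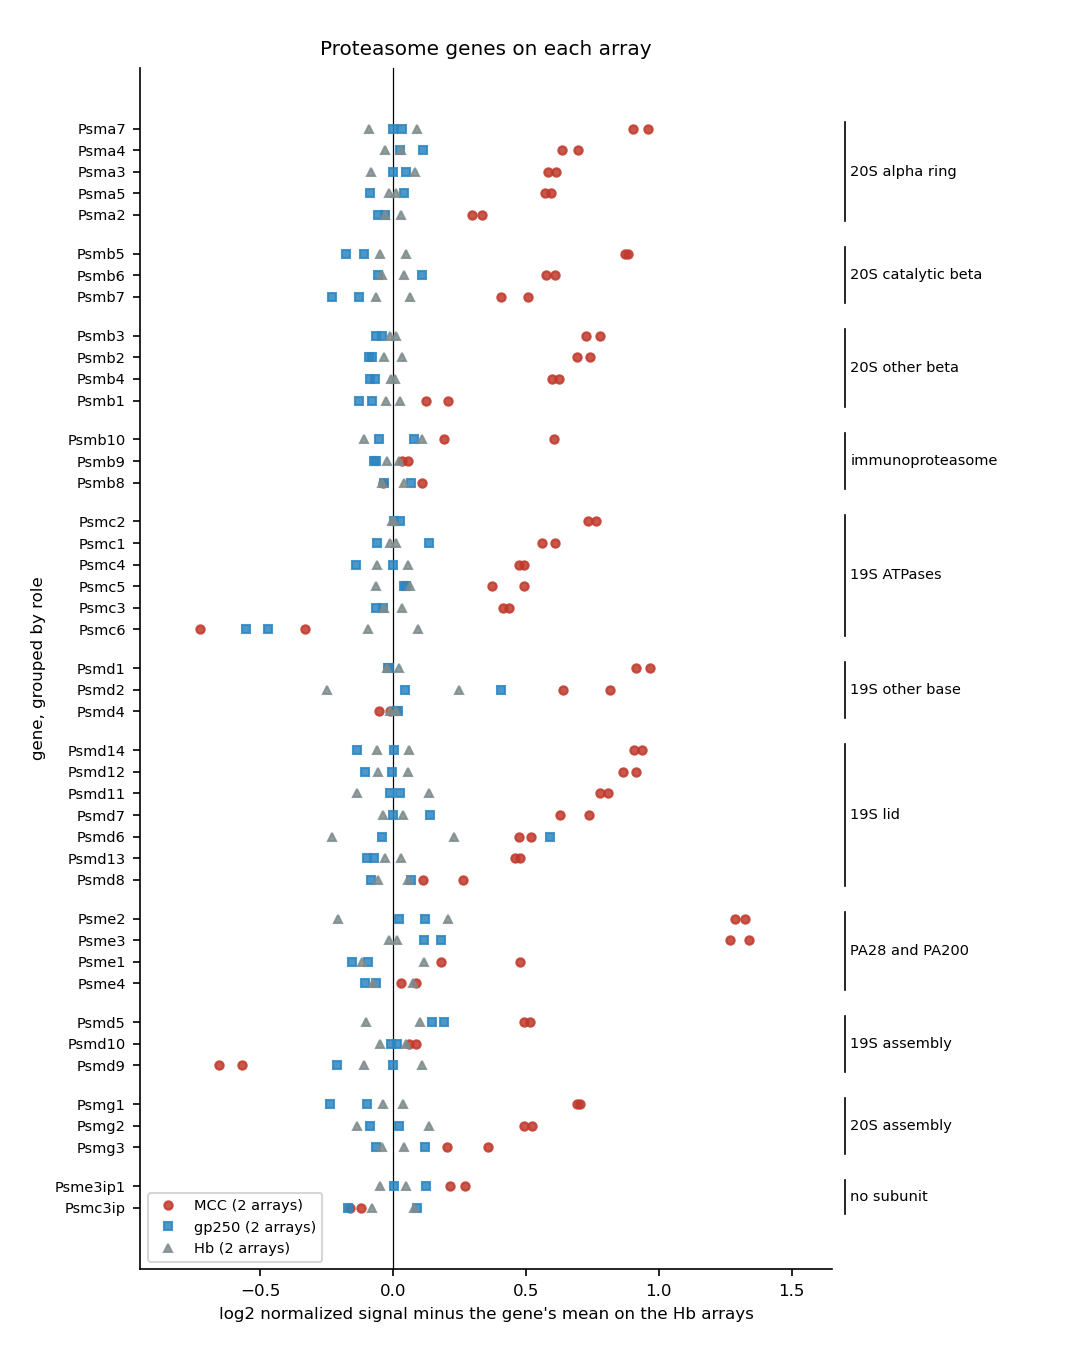
Each of the 43 tested genes (rows, grouped by role) on each of the 6 arrays, as the log2 normalized signal minus the gene's mean on the Hb arrays (x axis). MCC points (circles) lie to the right of the gp250 (squares) and Hb (triangles) points for 36 genes, those of Psmd9 lie to the left, and on Psmc6 both MCC and gp250 lie left of Hb.

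The alpha ring genes moved together. All 5 that were tested rose, and the log2 differences ran from 0.32 to 0.93, with a median of 0.60. Psma7 rose most: its log2 normalized signal was 12.36 and 12.42 on the MCC arrays, 11.46 and 11.49 on the gp250 arrays and 11.37 and 11.55 on the Hb arrays. The MCC arrays stood clear of the other 4, with a 1.91-fold difference from Hb (log2 0.93 ± 0.10, SE, adjusted p = 0.000401), and a dimmer Psma7 probe gave 0.99. Psma2 changed least, with 14.12 and 14.08 on MCC arrays, 13.75 and 13.72 on gp250 arrays and 13.81 and 13.75 on Hb arrays. Both MCC arrays lay above the other 4, while gp250 and Hb overlapped. The difference of MCC from Hb, 0.32 ± 0.09 (adjusted p = 0.0208), lost its call when any MCC or Hb array was left out, at 0.28 to 0.34. It was also lost under median scaling (0.20) and in the authors' processed table (0.24). Psma3, Psma4 and Psma5 lay between these, from 1.5-fold to 1.59-fold. The probes of Psma1 and Psma6 were not detected on any array.

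Among the catalytic subunits of the standard core, Psmb5, which carries the chymotrypsin-like activity, had 10.81 and 10.80 on MCC arrays, 9.75 and 9.82 on gp250 arrays and 9.98 and 9.87 on Hb arrays. That is 1.84-fold over Hb (0.88 ± 0.09, adjusted p = 0.000345). Psmb6, the caspase-like subunit, had 12.75 and 12.71 with MCC, 12.08 and 12.25 with gp250 and 12.18 and 12.10 with Hb, a 1.51-fold rise (adjusted p = 0.00281). Psmb7, the trypsin-like subunit, had 12.42 and 12.53 with MCC, 11.79 and 11.89 with gp250 and 12.08 and 11.95 with Hb. Its 3 probes rose by 0.41 to 0.50 on the log2 scale, and the call of the brightest was lost without MCC replicate 2 (0.40, adjusted p = 0.0531). In each of these genes both MCC arrays lay above the other 4. Of the beta subunits that do not cut, Psmb3 had 13.30 and 13.25 with MCC, 12.45 and 12.48 with gp250 and 12.51 and 12.53 with Hb, a 1.68-fold rise. Psmb2 rose 1.64-fold and Psmb4 1.53-fold. Psmb1 was 0.17 ± 0.09 higher and did not pass (adjusted p = 0.159), although its MCC values, 12.37 and 12.46, exceeded the 12.12 and 12.17 with gp250 and the 12.28 and 12.22 with Hb.

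The immunoproteasome subunits did not pass the test, 0 of 3, and 1 of the 3 (Psmb10) had an unadjusted p under 0.05. That count depends on the scaling. Without scaling between arrays, where 39 of the 43 proteasome genes rose, not all of these 3 stayed uncalled. Psmb8, which takes the place of Psmb5, had 10.10 and 9.96 on MCC arrays, 10.06 and 9.96 on gp250 arrays and 9.95 and 10.04 on Hb arrays, so that the groups overlapped. Its log2 difference of MCC over Hb was 0.04 (95% interval -0.21 to 0.28). Psmb9, which takes the place of Psmb6, had 6.81 and 6.84 with MCC, 6.72 and 6.71 with gp250 and 6.80 and 6.76 with Hb, a difference of 0.05 (-0.16 to 0.25). Its probe was dim (deposited signal 78.7 to 112), and the offset used before log2 pulls the differences of dim probes towards 0. The intervals of Psmb8 and Psmb9 end below the fitted rises of Psmb5 and Psmb6. Psmb10, which takes the place of Psmb7, had 11.25 and 10.84 with MCC, 10.59 and 10.73 with gp250 and 10.54 and 10.75 with Hb. The MCC replicates were far apart, and the difference of 0.40 ± 0.16 had an adjusted p of 0.0763, while a dimmer probe of the gene passed with 0.37 (adjusted p = 0.0217). Without MCC replicate 2 the brightest probe passed as well, at 0.61.

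Set against each other within an array, the rise of Psmb5 exceeded that of Psmb8 by 0.84 on the log2 scale, with 0.77 and 0.91 on the MCC arrays and 0.09 and -0.09 on the Hb arrays, relative to the Hb mean. For Psmb6 over Psmb9, the latter on its dim probe, the excess was 0.55, with 0.58 and 0.52 on the MCC arrays and 0.02 and -0.02 on the Hb arrays. For Psmb7 over Psmb10 it was 0.06, and the groups overlapped. An exact permutation test of 2 arrays against 2 cannot give less than p = 0.333, which the first and second pairs reached and the third, at p = 1, did not, so that test cannot call such an excess at this number of arrays. With gp250 the same excesses over Hb were -0.16, 0.09 and -0.19.

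**Figure D2:**
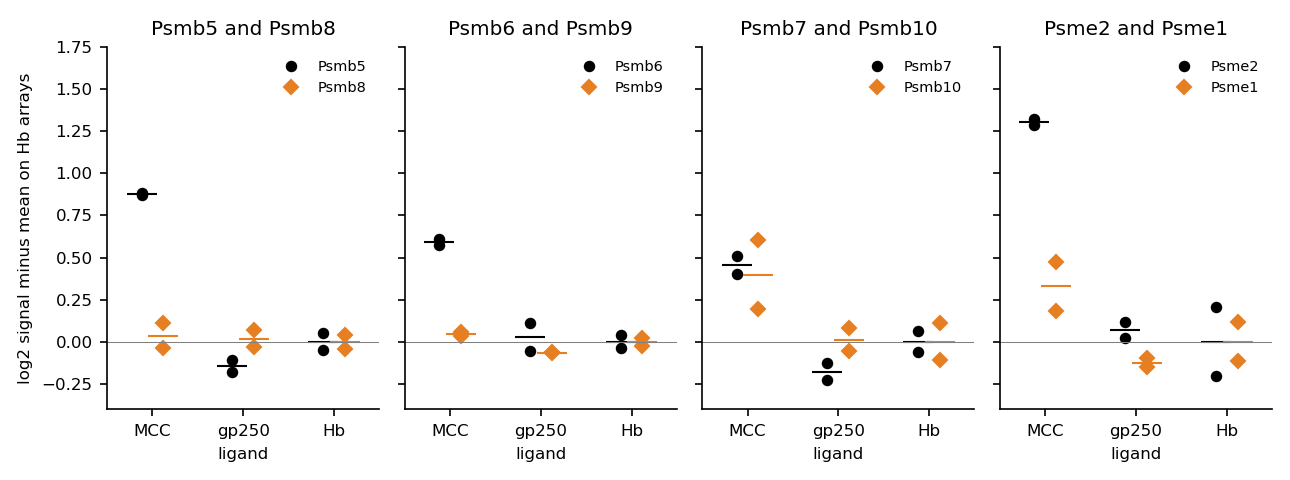
Log2 signal minus the mean on the Hb arrays (y axis) for pairs of genes, by ligand (x axis); points are arrays and dashes are means of 2 arrays. Psmb5 and Psmb6 are raised with MCC while Psmb8 and Psmb9 stay near 0, Psmb7 and Psmb10 overlap, and Psme2 lies above Psme1.

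Of the 6 ATPases of the 19S base, 5 rose and 1 fell. Psmc2 had the largest rise, with 13.48 and 13.45 on MCC arrays, 12.74 and 12.72 on gp250 arrays and 12.72 and 12.71 on Hb arrays, or 1.68-fold (0.75 ± 0.08, adjusted p = 0.000509). Psmc1 (1.5-fold), Psmc4 (1.40-fold), Psmc5 (1.35-fold) and Psmc3 (1.34-fold) followed. Psmc5 lost its call without MCC replicate 1 and without Hb replicate 2, at 0.37 each time. Psmc6 went the other way, on a dim probe that was detected on 1 of the 2 MCC arrays. It had 5.50 and 5.89 with MCC, 5.75 and 5.67 with gp250 and 6.13 and 6.32 with Hb. MCC and gp250 overlapped and both lay below Hb, and the difference of MCC from Hb was -0.53 ± 0.15 (adjusted p = 0.0247). It was no longer called without MCC replicate 1 (-0.33), without Hb replicate 2 (-0.44) or without scaling between arrays (-0.36).

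Psmd1, a scaffold of the base, had 8.47 and 8.42 on MCC arrays, 7.49 on each gp250 array, and 7.53 and 7.48 on Hb arrays. It rose 1.92-fold (0.94 ± 0.09, adjusted p = 0.000209), with the 4 other arrays within 0.05 of each other. Psmd2, the other large scaffold, was 1.66-fold higher on a dim and variable probe (7.232 and 7.407 with MCC, 6.999 and 6.639 with gp250 and 6.839 and 6.345 with Hb). That call was lost without MCC replicate 1 (0.81), MCC replicate 2 (0.64) or Hb replicate 2 (0.48). Psmd4, a receptor for ubiquitin chains, stood apart from its neighbours in the complex, with 12.83 and 12.88 with MCC, 12.90 and 12.91 with gp250 and 12.90 and 12.88 with Hb. Its difference was -0.03 (95% interval -0.24 to 0.17), and it turned to 0.37 (adjusted p = 0.0247) without scaling between arrays.

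In the 19S lid 5 of 7 genes rose and 0 fell. Psmd14, the enzyme that removes ubiquitin chains from substrates, had 10.52 and 10.55 on MCC arrays, 9.62 and 9.48 on gp250 arrays and 9.55 and 9.67 on Hb arrays, or 1.90-fold over Hb (0.92 ± 0.10, adjusted p = 0.000405). Psmd12 rose 1.85-fold, and both of its probes gave 0.89. Psmd11 rose 1.73-fold, while a dimmer probe of the gene did not pass (0.52, adjusted p = 0.081). Psmd7, the partner of Psmd14, rose 1.60-fold and Psmd13 1.38-fold. Psmd8 changed least, with 12.148 and 11.998 with MCC, 11.800 and 11.953 with gp250 and 11.941 and 11.828 with Hb. Its difference of 0.19 ± 0.11 did not pass (adjusted p = 0.182). Psmd6, on a dim probe, had 0.50 ± 0.24 (adjusted p = 0.119), and its gp250 replicate 2 value of 6.91 lay above both MCC values.

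The caps outside the 19S held the largest rises. Psme3, which forms the PA28 gamma ring of the nucleus, had 11.45 and 11.38 on MCC arrays, 10.29 and 10.23 on gp250 arrays and 10.13 and 10.10 on Hb arrays, a 2.47-fold rise (1.30 ± 0.09, adjusted p = 5.97e-05). Psme2, the PA28 beta subunit, had 9.03 and 8.99 with MCC, 7.83 and 7.73 with gp250 and 7.91 and 7.50 with Hb, also 2.47-fold (1.30 ± 0.15, adjusted p = 0.000494). RefSeq lists a similar gene, Psme2b, and whether the Psme2 probe tells them apart was not tested. Psme1, the PA28 alpha subunit that shares a ring with Psme2, had 12.66 and 12.37 with MCC, 12.09 and 12.04 with gp250 and 12.31 and 12.07 with Hb. Both MCC arrays were the highest, but the difference of 0.33 ± 0.14 did not pass (adjusted p = 0.0824), while a dimmer probe passed with 0.37 (adjusted p = 0.0414), as did the brightest without MCC replicate 2 (0.47, adjusted p = 0.0477). The rise of Psme2 exceeded that of Psme1 by 0.98 on the log2 scale, at p = 0.333 by the exact permutation test. Psme4, the PA200 cap, had 11.92 and 11.86 with MCC, 11.77 and 11.73 with gp250 and 11.91 and 11.76 with Hb. Its groups overlapped, with a difference of 0.06 (95% interval -0.17 to 0.29).

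Of the 6 assembly chaperone genes 3 rose, 1 fell and 2 did not pass. Psmg1, which helps to build the alpha ring, had 9.43 and 9.44 on MCC arrays, 8.50 and 8.64 on gp250 arrays and 8.70 and 8.77 on Hb arrays, or 1.62-fold over Hb (adjusted p = 0.00117). Its partner Psmg2 rose 1.42-fold, a call lost without MCC replicate 2 (0.49, adjusted p = 0.0554). Psmg3 had 9.27 and 9.43 with MCC, 9.19 and 9.01 with gp250 and 9.11 and 9.03 with Hb, and its difference of 0.28 ± 0.11 did not pass (adjusted p = 0.0727). Among the chaperones of the 19S base, Psmd5 rose 1.42-fold, with 8.27 and 8.25 with MCC, 7.95 and 7.90 with gp250 and 7.66 and 7.86 with Hb. Psmd9 was lower with MCC, at 6.85 and 6.94, against 7.30 and 7.51 with gp250 and 7.40 and 7.62 with Hb (-0.61 ± 0.12, adjusted p = 0.00596). A dimmer Psmd9 probe pointed up (0.32, adjusted p = 0.297), so the direction of this gene depends on the probe, and without scaling between arrays the brighter probe was not called (-0.39, adjusted p = 0.0501). Psmd10, also known as gankyrin, differed by 0.07 on its brightest probe (95% interval -0.14 to 0.29), and its other probes gave up to 0.28.

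**Figure D3:**
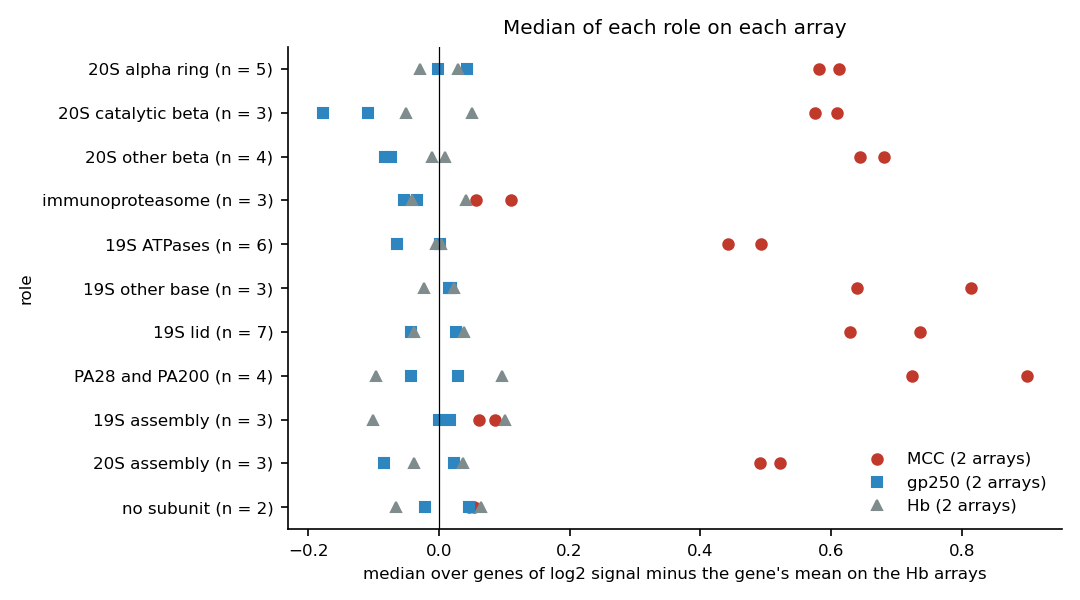
Median over the genes of each role (rows, n genes) on each array, as log2 signal minus each gene's mean on the Hb arrays (x axis). The 2 MCC arrays (circles) lie between 0.44 and 0.90 for the core, the 19S cap, the PA28 and PA200 group and the 20S chaperones, and between 0.06 and 0.11 for the immunoproteasome and the 19S chaperones.

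By role, the 12 tested genes of the standard core had a median log2 difference of 0.60, and 11 of them rose. The 16 tested 19S genes had a median of 0.54, with 12 up and 1 down. The interferon-inducible group of Psmb8, Psmb9, Psmb10, Psme1 and Psme2 had a median of 0.33, with 1 up, and the assembly chaperones 0.39. The median of the interferon-inducible group rests on the MCC replicate used: it was 0.18 without MCC replicate 1 and 0.47 without MCC replicate 2. The genes that share the prefix but are no subunits did not pass. Psmc3ip had 9.46 and 9.50 with MCC, 9.45 and 9.71 with gp250 and 9.54 and 9.70 with Hb (-0.14, adjusted p = 0.357), and Psme3ip1 had 10.38 and 10.32 with MCC, 10.23 and 10.11 with gp250 and 10.06 and 10.16 with Hb (0.24, adjusted p = 0.0735).

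The comparison of gp250 with Hb asks the same of a positive-selecting ligand. No proteasome gene passed: limma called 0 of 43, beside 0% of all tested genes, and 1 gene had an unadjusted p under 0.05, beside 513 of the 8253 genes. That gene was Psmc6 (-0.51 ± 0.15, adjusted p = 0.716), on the dim probe described above. The median log2 difference was -0.02, with 20 genes above 0. The 95% interval excluded a 1.5-fold change, up or down, for 40 of the 43 genes, all but Psmc6, Psmd2 and Psmd6. It did so for 6760 of the 8253 tested genes. Psmb5 differed by -0.14 (-0.36 to 0.08), Psmd1 by -0.02 (-0.22 to 0.19), Psme2 by 0.07 (-0.28 to 0.42) and Psme3 by 0.15 (-0.06 to 0.36).

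**Figure D4:**
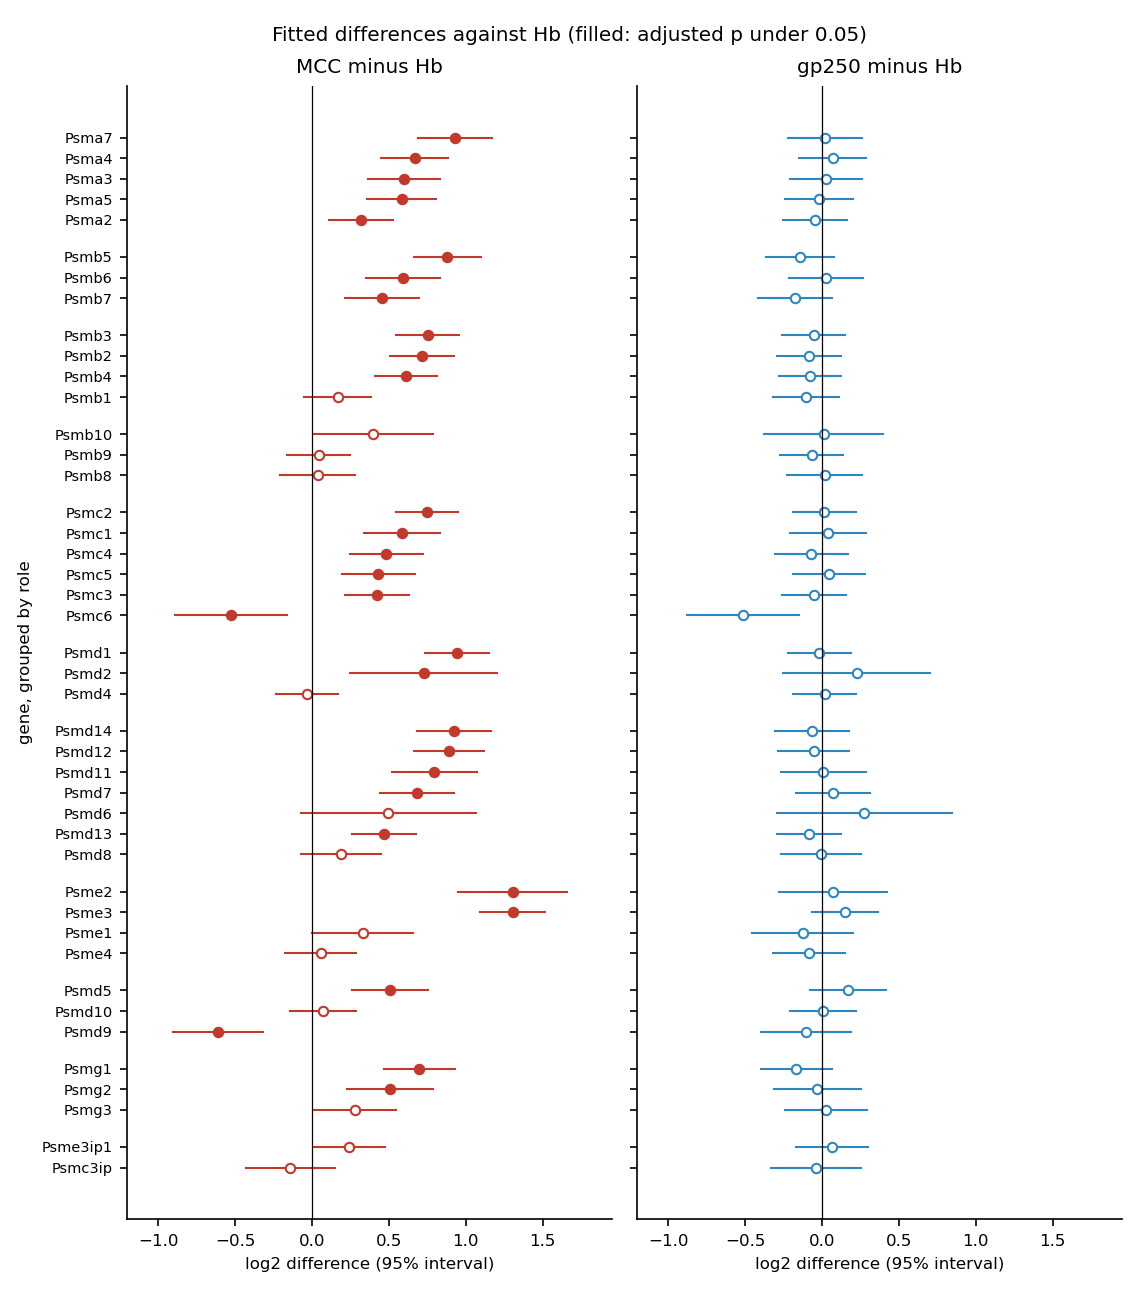
Fitted log2 difference (x axis) of MCC from Hb on the left and of gp250 from Hb on the right for each tested gene (rows, grouped by role), with the 95% interval; filled points had an adjusted p under 0.05. With MCC 28 genes are filled to the right of 0 and 2 to the left, and with gp250 none is filled.

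MCC was also compared with gp250, which shares the MCC arrays with the first comparison. Here 29 of the 43 genes rose and 1 fell, beside 26.3% and 29.6% of all tested genes, and the median was 0.55. Psmb1 (0.27, adjusted p = 0.0406) and Psme1 (0.45, adjusted p = 0.0289) passed here, while Psmd2 (0.50, adjusted p = 0.0714) and Psmc6 (-0.02, adjusted p = 0.941) did not. Psme2 (1.23), Psme3 (1.15) and Psmb5 (1.02) were at least 2-fold higher. Psmb8 differed by 0.02 (-0.22 to 0.26), Psmb9 by 0.11 (-0.09 to 0.32) and Psmb10 by 0.39 (adjusted p = 0.083).

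Genes that work with the proteasome but carry other names were read from a list, of which 14 were tested. With MCC 7 rose and 2 fell against Hb, beside 26.2% and 28.8% of all tested genes. With gp250 0 passed against Hb, 0 at an unadjusted p under 0.05, beside 0% of all tested genes that passed. Pomp, the factor that matures the core's beta rings, rose 2.48-fold (1.31 ± 0.08, adjusted p = 4.87e-05). The deubiquitinases Usp14 (1.49-fold) and Uchl5 (1.43-fold), both of which dock on the 19S cap, and Zfand2a (1.36-fold), a stress-induced zinc finger gene, rose as well. The Usp14 probe was dim (deposited signal 82.4 to 207). For Zfand2a the MCC arrays (10.10 and 10.01) overlapped gp250 replicate 1 (10.02), and MCC against gp250 did not pass (0.18, adjusted p = 0.267). Ubqln1, a shuttle for ubiquitinated proteins, fell by 0.45 on the log2 scale, and the proteasome adaptor Ecpas fell by 0.29. The transcription factor Nfe2l1, known to raise proteasome genes when proteasome activity drops, was 0.18 ± 0.09 higher (adjusted p = 0.147), and its relative Nfe2l2 had -0.19 ± 0.10 (adjusted p = 0.145). Both MCC arrays lay above all gp250 and Hb arrays for Nfe2l1 and below them all for Nfe2l2. Against gp250, Nfe2l2 was lower with MCC (-0.40, adjusted p = 0.0139), and Nfe2l1 did not pass (0.11, adjusted p = 0.356). Adrm1 was not analysed here.

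A second list held class I loading genes and interferon regulators, 14 of them tested. With MCC against Hb 6 rose and 3 fell, beside 26.2% and 28.8% of all tested genes. With gp250 against Hb 0 passed (0 at an unadjusted p under 0.05), beside 0% of all tested genes. The endoplasmic reticulum chaperones Calr (4.81-fold) and Pdia3 (2.36-fold) rose most among genes detected on every array. Nlrc5, a regulator known to switch on class I genes, was detected on both MCC arrays (7.74 and 6.80) and on no gp250 or Hb array. It entered the tested genes, and so the 6 that rose, only through the MCC arrays, and no p-value is given for it. With MCC it was at least 2.95-fold higher than with Hb (its mean against the lowest signal that counted as detected). Irf8, detected on 1 of the 2 Hb arrays, was 2.40-fold higher. Stat2 fell by 0.75, Tap2 by 0.49 and Irf2 by 0.41 on the log2 scale. In RefSeq, Psmb8 lies between Tap1 and Tap2, the genes of the class I peptide transporter, and Psmb9 lies next to Tap1. Tap1 differed by -0.08 ± 0.10 (adjusted p = 0.562), and Irf1, a factor known to induce Psmb9, by 0.21 ± 0.13 (adjusted p = 0.212).

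Averaged over probes, the deposited signal of MCC arrays was 582 to 613, of gp250 arrays 445 to 482 and of Hb arrays 470 to 488, and replicates correlated with r = 0.994 within each ligand. Of the markers of CD4+CD8+ thymocytes, 11 of 12 with a probe were tested. With MCC against Hb 8 fell and 1 rose, beside 28.8% and 26.2% of all tested genes. Cd4, Rag2 and Ptcra were not detected (p under 0.05) on either MCC array. They entered the tested genes, and so the 8 that fell, only through the gp250 and Hb arrays. The Cd8a probe was not detected on any array. Markers of other cells were mostly undetected (8 of 29 on at least 2 arrays), among them Pax5, Itgam, Itgax, Adgre1, Krt5, Foxn1 and Col1a1, which were not detected on any array. Their summed deposited signals moved with MCC. B cell markers summed to 307 to 313 on MCC arrays, 1063 to 1184 on gp250 arrays and 1148 to 1160 on Hb arrays, and stromal markers to 581 to 589, 1132 to 1380 and 1229 to 1324 in the same order. Myeloid markers gave 698 to 710 on MCC arrays, 426 to 471 on gp250 arrays and 461 to 535 on Hb arrays, and erythroid markers 2751 to 2836, 3106 to 3729 and 2998 to 3482. Single genes carried these sums. Cd79b gave 229 to 238 of the B cell sum on MCC arrays, 988 to 1106 on gp250 arrays and 1044 to 1078 on Hb arrays, and Hba-a1 most of the erythroid sum. Within a list genes went opposite ways: with MCC against Hb, Pecam1 fell by 1.67 and Krt8 rose by 0.41 (stromal, log2 scale), while H2-Ab1 rose by 0.55 and Cd74 had -0.47 and did not pass (myeloid). Of the B cell list, Pax5, Cd22 and Blnk were not detected on any array. Whether these marker signals came from other cells or from the thymocytes was not tested, nor was their part in the proteasome results. Were other cells present, fewer cells of a type and less RNA per cell could not be told apart.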

How the data were processed

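Messenger RNA was read on 6 Illumina arrays with 25697 probes each, with biotinylated cRNA made with an Ambion kit, per the labels. What the authors deposited is, per the file headers, an unnormalized intensity with its detection p-value, by probe and array. Since some intensities were below 0 on each array, a background had already been subtracted. The authors' processed table is the same deposited intensity times 1 factor per array (0.825 to 1.13), and served as an alternative. No header names the scanner software.

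The analysis used limma 3.58.1 under R 4.3.3. The deposited intensities went through normexp with the detection p-values, an offset of 16 (which pulls the differences of dim probes towards 0), quantile normalization and log2. Probes with a detection p below 0.05 on 2 or more of the 6 arrays were tested (11942 probes, 8253 genes). A gene was read by its brightest tested probe. A model with 1 mean per ligand over 6 arrays left 3 residual degrees of freedom. Tests were moderated (eBayes) and adjusted by Benjamini-Hochberg over all tested probes of a comparison. Errors are standard errors and intervals 95% intervals of that model. The number of arrays limits the precision.

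Symbols come from the platform annotation and matched RefSeq by Entrez number for 45 of 45 genes. Array values are given for Psmb5 to Psmb10, Psme1 to Psme4, Psmd1 and the genes of largest and smallest difference in each other role, and for Psmd2, chosen after its values were seen. Of the lists of other genes, up to 4 rises and 4 falls and a few preset genes are named. The members, lists and motifs were chosen with earlier results of these data known. Where neither array of a ligand detected a gene, its fold is a bound, taken against that gene's own signal or the lowest detected signal, whichever was higher. Same-numbered replicates showed no shared deviation (correlations of -0.02 to 0.02), so they were not treated as pairs. The fit alone was tested on simulated data, in which only a small part of the probes differed between ligands. Those data did not go through the normalization.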

Additional observations from a re-analysis of the deposited data

How the results depend on the processing

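With 2 arrays per ligand, small differences have wide intervals. Of the 30 proteasome genes called with MCC against Hb, 23 kept their call under the 9 alternative settings and with each array left out in turn, and 7 lost it in at least 1 (Psma2, Psmb7, Psmc5, Psmc6, Psmd2, Psmd9 and Psmg2). That tally reads each gene by its brightest probe and leaves out its other probes. The number that rose was 27 to 39 under the other settings and 25 to 28 with 1 array left out. The median log2 difference of all proteasome genes with MCC against Hb, 0.50, became 0.48 with an offset of 50, 0.57 with median scaling, 0.58 with the authors' processed table and 0.89 without scaling between arrays. For the core (0.60) the last 3 gave 0.64, 0.65 and 0.97, and for the 19S genes (0.54) they gave 0.60, 0.58 and 0.90, with 0.58 where a probe had to be detected on all 6 arrays, which leaves out Psmc6. Without scaling, the interferon-inducible group had 0.72 and the assembly chaperones 0.66. For gp250 against Hb the family median, -0.02, was 0.0126 with median scaling and -0.0629 without scaling, and for MCC against gp250 (0.55) it was 0.90 without scaling. The genes that fell, 2 against Hb and 1 against gp250, numbered 0 and 0 without scaling, 1 and 0 when every tested probe of a gene had to be called, and 1 against Hb with detection on all 6 arrays. Under no scaling Psmd4 turned to 0.37, and another Psmd9 probe gave 0.32. With 1 array left out, the genes that fell numbered 1 to 2 and 0 to 1, and the medians ran from 0.60 to 0.65 for the core, 0.52 to 0.61 for the 19S genes, 0.18 to 0.47 for the interferon-inducible group, -0.0515 to -0.000598 for gp250 against Hb and 0.49 to 0.57 for MCC against gp250. With the replicate number as a block, 29 genes rose and 2 fell against Hb (28 and 1 against gp250), and the samples share only a number. In gp250 against Hb 0 probes were called under every setting.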

Other observations

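Probes of the same proteasome gene mostly gave the same answer. Of 14 genes with more than 1 tested probe, 13 had probes of 1 sign and 10 had probes within 0.2 of each other (log2, MCC over Hb). The probes of Psmd12 gave 0.89 and 0.89, and those of Psmg2 gave 0.51 and 0.48. Psmd9 was the exception in sign, and its probes differed by 0.93. On the dimmer Psmd9 probe the log2 signals were 6.57 and 6.82 with MCC, 6.10 and 6.28 with gp250 and 6.02 and 6.74 with Hb, so that the MCC and Hb arrays overlapped.

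Of the 67 probes, 8 were not detected on enough arrays to be tested. Psma1 and Psma6, which encode subunits of the alpha ring, had no other probe, and their log2 signals were 4.58 to 4.67 and 4.58 to 4.82 over the 6 arrays. Second probes of Psma3, Psmb2, Psmd11 and Psmd5 were likewise undetected on all arrays, while the main probes of these genes were detected on all 6.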
